A study of Mus musculus with 6 samples.

Results

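Cholesterol efflux and its control by the liver X receptors (LXRs) were followed through 10 genes of the deposited count table, chosen by name: Abca1, Abcg1, Apoe, Apoc1, Nr1h2, Nr1h3, Mylip, Ch25h, Soat1 and Abcg3. All 10 were found among the 52550 genes of the table, and all 10 had enough counts to be tested, among 16402 genes. Macrophages were grown from C57BL/6 bone marrow in 25 ng/ml M-CSF for 7 days and were then kept for 48 h with bone marrow stem cells (BMSCs) across a transwell membrane. One group of 3 libraries came from MSR1 KO macrophages and the other group of 3 libraries from MSR1 WT macrophages. The WT cells carried no other named allele, and the co-culture, the strain and the M-CSF were common to both groups. The KO mice lacked MSR1 in the whole animal, not in macrophages alone, and none of the libraries came from macrophages without BMSCs. The libraries of a genotype are described as biological replicates, but neither labels nor methods say whether they came from separate mice or separate cultures, and p-values measure the spread between these libraries.

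MSR1, or scavenger receptor A, takes up modified low density lipoprotein and thereby brings cholesterol into macrophages. Part of that cholesterol is turned into oxysterols, which bind LXRα and LXRβ. Together with a retinoid X receptor, LXRs then raise the transporters ABCA1 and ABCG1 and the apolipoprotein APOE, which carry cholesterol out of the cell, and the ubiquitin ligase MYLIP, which removes the LDL receptor. Levels of these transcripts are therefore often read as reporters of sterol load, and their comparison between genotypes asks whether that load differed without MSR1.

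No gene of the set passed an adjusted p of 0.05 between MSR1 KO and MSR1 WT macrophages by edgeR's quasi-likelihood test. The efflux transporters Abca1 and Abcg1 differed by -0.073 and -0.0028 on the log2 scale, Apoe by 0.16, and the LXR genes Nr1h2 and Nr1h3 by 0.010 and 0.17 (KO over WT). Ch25h, which makes an oxysterol, and Soat1, which esterifies cholesterol, were lower in all 3 KO libraries than in any WT library, but neither passed the test. Msr1 itself had 59.0, 45.8 and 43.0 CPM (counts scaled to the size of each library by the TMM method) in the KO libraries against 183, 193 and 223 CPM in the WT libraries. The KO level was lower by a log2 fold change of -2.02 with an adjusted p of 0.0012 (edgeR's quasi-likelihood test, standard error 0.14), and reads on the gene remained in every KO library.

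Of the 10 genes, 0 rose and 0 fell at an adjusted p under 0.05, where 2.25% of all tested genes rose and 2.66% fell in the same edgeR test. Under the study's definition of a changed gene, a fold change above 1.5 with an unadjusted p under 0.05, 0 were higher and 0 lower, against 3.59% and 5.05% of all tested genes. At an unadjusted p under 0.05, 0 of the 10 passed in edgeR and 0 in DESeq2's Wald test, and the adjusted p-values from edgeR ran from 0.29 to 1. Every KO library lay above every WT library for 0 of the 10 genes, whereas 12.1% of all tested genes did so. Every KO library lay below every WT library for 2 of the 10 genes, Ch25h and Soat1, beside 13.4% of all tested genes. With 6 positive and 4 negative log2 fold changes, the median over the set was 0.024, against -0.0023 over all tested genes. For 8 of the 10 genes, all but Apoc1 and Ch25h, the 95% interval of the fold change lay within 1.5-fold in either direction, as it did for 8195 (50.0%) of the tested genes. A change of more than 1.5-fold was thus outside the interval for those 8 genes, while smaller changes remained possible. With a single library left out, between 6 and 8 of the 10 intervals lay within that limit.

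**Figure D1:**
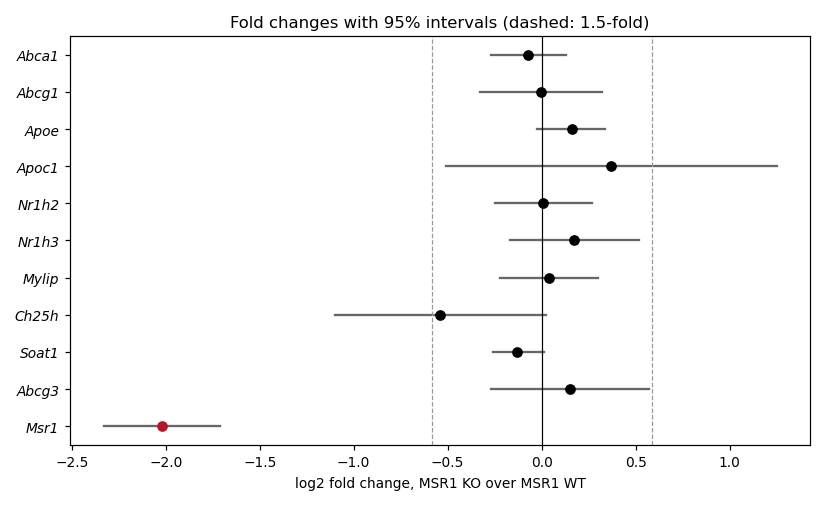
Log2 fold change of MSR1 KO over MSR1 WT macrophages (x axis) for the 10 genes and for Msr1 (y axis). Points are edgeR estimates, lines their 95% intervals over 3 against 3 libraries, and dashed lines mark 1.5-fold; 8 of the 10 intervals lie between the dashed lines and all 10 cross 0, whereas that of Msr1 (red) lies below -1.71.

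The promoter of Abca1 is shown because, among the 8 genes of the set with a promoter window, it alone held a match to a degenerate form of the LXR motif. Its sequence is the 250 bases upstream of the start site in RefSeq (GRCm38.p6, chr4:53159896-53160145, minus strand, printed 5′ to 3′ along the gene), and capitals mark the match.

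Abca1 promoter: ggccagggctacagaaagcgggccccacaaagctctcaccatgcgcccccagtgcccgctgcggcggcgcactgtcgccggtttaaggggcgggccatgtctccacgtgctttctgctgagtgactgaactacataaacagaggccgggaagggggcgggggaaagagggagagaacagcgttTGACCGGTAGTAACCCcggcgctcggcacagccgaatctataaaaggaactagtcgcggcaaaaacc

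LXR with its partner binds 2 copies of the half-site AGGTCA with 4 bases between them, a motif called DR4. Searched on both strands with up to 2 mismatches over the 12 half-site positions, this repeat was found in 843 of 32851 promoter windows of 250 bases (2.57%) and in none of 11 windows for 8 genes of the set. A degenerate form of DR4 with 1 mismatch allowed, added after the first search had been seen, was found in 1329 windows (4.05%), of which 1 belonged to the set. That match was the element in capitals, 67 to 52 bases upstream of the Abca1 start site, read as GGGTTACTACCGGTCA on the opposite strand. The interferon-type motif, GAAA repeated with 2 bases between, was found in 978 windows (2.98%) and in none of the set. Abcg1 and Apoc1 had no window in the RefSeq table. Such matches describe letters only, and many LXR sites lie outside windows of this length.

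Abca1 (ENSMUSG00000015243.4, chromosome 4 from 53030787 to 53159895, minus strand, GRCm38) encodes the transporter that hands cholesterol to lipid-poor apolipoprotein A-I. It had 1336, 1122 and 1310 CPM in KO replicates 1 to 3 and 1212, 1370 and 1383 CPM in WT replicates 1 to 3. Means were 1256 ± 117 CPM (SD, n = 3) in KO and 1321 ± 95.3 CPM (SD, n = 3) in WT libraries. The lowest library was KO replicate 2, WT replicate 1 lay below the other KO libraries, and the groups overlapped. The log2 fold change of -0.073 had a standard error of 0.088, a 95% interval from -0.27 to 0.13 and an adjusted p of 0.73 by edgeR's quasi-likelihood test. Without KO replicate 2 the value was 0.0019, and without WT replicate 1 it was -0.13.

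Abcg1 (ENSMUSG00000024030.6, chromosome 17 from 31057698 to 31115777, plus strand) passes cholesterol to mature HDL particles. Its levels were 121, 112 and 121 CPM in KO and 91.8, 122 and 141 CPM in WT libraries. The WT libraries held both the lowest and the highest value, around a mean of 118 CPM in each genotype (SD 5.61 in KO and 24.6 in WT, n = 3). Its log2 fold change was -0.0028 with a 95% interval from -0.33 to 0.32 (adjusted p = 1, edgeR's quasi-likelihood test), and its sign depended on the library left out. Leaving out WT replicate 1 gave -0.16, and leaving out WT replicate 3 gave 0.14. The ratio of Abca1 to Abcg1, each in CPM per kb of exon, was 7.49 ± 0.359 in KO and 8.04 ± 1.19 in WT libraries (SD, n = 3).

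Abcg3 (ENSMUSG00000029299.14, chromosome 5 from 104935057 to 104982718, minus strand) is a rodent member of the ABCG family and is not an established cholesterol exporter. It had 20.6, 14.8 and 22.2 CPM in KO and 14.1, 18.1 and 19.8 CPM in WT libraries. KO replicate 3 was the highest and WT replicate 1 the lowest, and the groups overlapped. Its difference was 0.15 on the log2 scale (95% interval -0.27 to 0.57, adjusted p = 0.73, edgeR's quasi-likelihood test). Without WT replicate 1 it was 0.022, and without KO replicate 2 it was 0.31.

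Apoe (ENSMUSG00000002985.16, chromosome 7 from 19696109 to 19699188, minus strand) encodes the apolipoprotein that macrophages secrete to take up cellular cholesterol. It ranked 3rd in CPM among all tested genes and took 1.34 to 1.63% of the counts of a library. Levels were 14683, 13467 and 16664 CPM in KO libraries and 13301, 13309 and 13523 CPM in WT libraries. The 3 WT values lay close together, KO replicates 1 and 3 lay above them, and KO replicate 2 fell inside their range. Means were 14938 ± 1614 CPM in KO and 13378 ± 126 CPM in WT libraries (SD, n = 3). KO exceeded WT by 0.16 on the log2 scale (95% interval -0.026 to 0.34, adjusted p = 0.34, edgeR's quasi-likelihood test). Without KO replicate 2 it was 0.23 with an adjusted p of 0.14, and without KO replicate 3 it was 0.077.

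Apoc1 (ENSMUSG00000040564.14, chromosome 7 from 19689481 to 19692660, minus strand) lies beside Apoe and encodes a small apolipoprotein of HDL and remnant particles. Only 37, 27 and 43 reads were counted in the KO and 23, 31 and 34 in the WT libraries, or 1.03, 0.678 and 0.925 CPM against 0.558, 0.653 and 0.823 CPM. KO replicates 1 and 3 were highest, but the groups overlapped. At this depth the interval of the log2 fold change of 0.37 ran from -0.51 to 1.25 (adjusted p = 0.67, edgeR's quasi-likelihood test), which reaches past a doubling. Apoe exceeded Apoc1 per kb of exon by 4960, 6910 and 6268 times in KO and by 8297, 7088 and 5718 times in WT libraries. Of 6 tested neighbours of Apoe and Apoc1, 0 rose and 0 fell at an adjusted p under 0.05 in edgeR. Clptm1 had a log2 fold change of 0.18 and Bcam one of -0.77 (adjusted p = 0.39 and 0.099). Every KO library lay above every WT library for Clptm1 and below for Bcam, which met the study's definition of a changed gene. DESeq2's Wald test called 1 neighbour lower at an adjusted p under 0.05.

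Nr1h2 (ENSMUSG00000060601.13, chromosome 7 from 44549616 to 44553951, minus strand) encodes LXRβ, the more widely expressed of the receptors. It had 64.9, 78.0 and 68.3 CPM in KO and 60.1, 75.1 and 74.6 CPM in WT libraries, with KO replicate 2 the highest and WT replicate 1 the lowest. Its log2 fold change was 0.010 (95% interval -0.25 to 0.27, adjusted p = 0.97, edgeR's quasi-likelihood test). Scaling by library size alone turned this to -0.022, leaving out KO replicate 2 to -0.07 and leaving out WT replicate 1 to -0.088.

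Nr1h3 (ENSMUSG00000002108.10, chromosome 2 from 91184061 to 91202834, minus strand) encodes LXRα, which is enriched in macrophages and liver and is itself an LXR target in human macrophages. Its levels were 24.8, 19.3 and 27.1 CPM in KO and 18.2, 22.9 and 22.0 CPM in WT libraries. KO replicate 2 lay within the WT range, and KO replicates 1 and 3 lay above it. On the log2 scale KO exceeded WT by 0.17 (95% interval -0.17 to 0.52, adjusted p = 0.6, edgeR's quasi-likelihood test). Without KO replicate 3 the value was 0.07, and without KO replicate 2 it was 0.30. Per kb of exon, Nr1h2 exceeded Nr1h3 by 2.30 ± 0.639 times in KO and by 2.49 ± 0.0431 times in WT libraries (SD, n = 3).

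The partners and co-regulators of LXR, among them retinoid X receptors, the co-repressor Ncor1 and the co-activators of the Ncoa family, were measured as a list of 19 genes of which 18 were tested. None rose and none fell at an adjusted p under 0.05 (0 and 0 of 18, edgeR). Their median log2 fold change was 0.12, with 14 of 18 values above 0. Ncor1, an abundant member, had a log2 fold change of -0.015 (95% interval -0.17 to 0.14). Rxrb had 79.0, 75.2 and 77.0 CPM in KO and 75.8, 60.8 and 65.4 CPM in WT libraries, with 1 WT library within the KO range and a log2 fold change of 0.19 (adjusted p = 0.31, edgeR's quasi-likelihood test). Rxra, the more abundant of these receptors, had 158, 165 and 175 CPM in KO and 193, 180 and 182 CPM in WT libraries. Its KO values all lay below its WT values, with a log2 fold change of -0.15 (95% interval -0.32 to 0.0071, adjusted p = 0.29, same test). Tbl1xr1 at 0.26 was the list's furthest from 0 (adjusted p = 0.43, same test), and its value in WT replicate 1, 89.9 CPM, stood well above the 58.5 and 62.4 CPM of the other WT libraries.

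**Figure D2:**
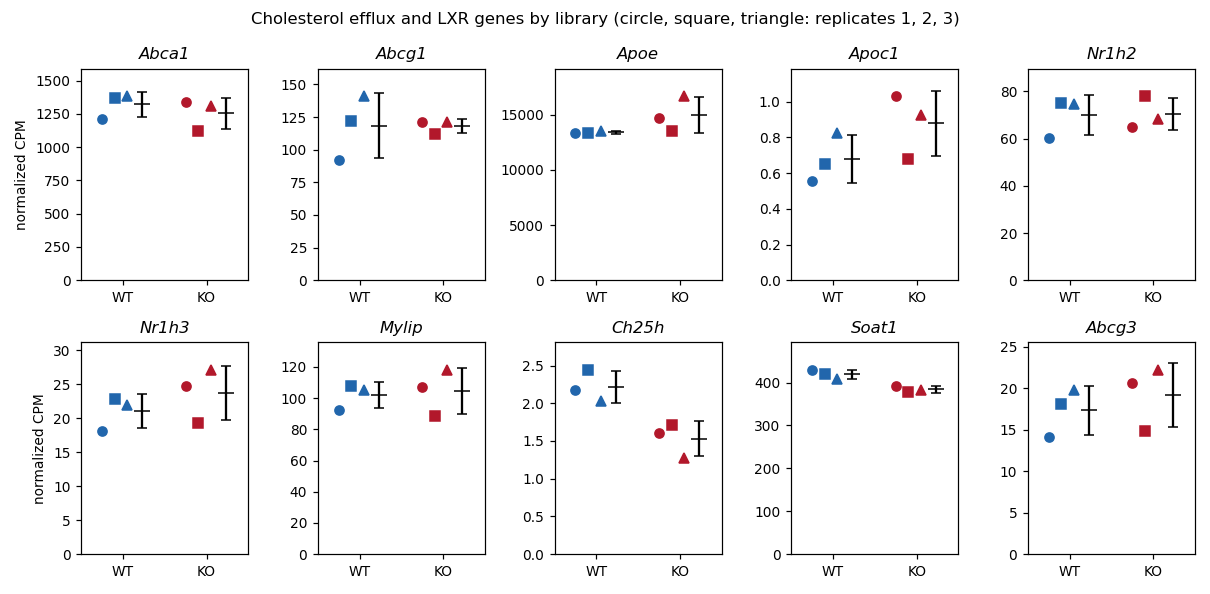
Normalized CPM (y axis, from 0) of the 10 genes in 3 MSR1 WT (blue) and 3 MSR1 KO (red) libraries, with the shape of a point giving the replicate number and black bars the mean ± SD. Red and blue points separate for Ch25h and Soat1 only, where all 3 KO libraries lie below all 3 WT libraries.

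Mylip (ENSMUSG00000038175.10, chromosome 13 from 45389742 to 45412022, plus strand), also called Idol, is an LXR target whose product marks the LDL receptor for degradation. It had 107, 88.6 and 118 CPM in KO and 92.5, 108 and 105 CPM in WT libraries. The KO libraries held both ends of the range, KO replicate 2 the lowest and KO replicate 3 the highest. The log2 fold change was 0.038 (95% interval -0.22 to 0.30, adjusted p = 0.91, edgeR's quasi-likelihood test), and it fell below 0 without KO replicate 3 (-0.052) or without WT replicate 1 (-0.027).

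Ch25h (ENSMUSG00000050370.4, chromosome 19 from 34473786 to 34475135, minus strand) encodes cholesterol 25-hydroxylase, which makes the LXR ligand 25-hydroxycholesterol and is also known as an interferon-induced gene. It was counted 58, 68 and 59 times in the KO and 90, 116 and 84 times in the WT libraries. In CPM these were 1.61, 1.71 and 1.27 against 2.18, 2.44 and 2.03. The highest KO library thus lay below the lowest WT library, and the mean fell from 2.22 ± 0.208 in WT to 1.53 ± 0.231 CPM in KO libraries (SD, n = 3). The log2 fold change of -0.54 (standard error 0.25, 95% interval -1.10 to 0.026) did not pass the test, with an unadjusted p of 0.059 and an adjusted p of 0.29 by edgeR's quasi-likelihood test over all genes. With each library left out it stayed between -0.63 and -0.41. The gene ranked 12551st of the tested genes in CPM. Gm26902 on the opposite strand shares 159 bases of exon with it (11.5% of its exon bases), and the strand setting of the counting is not given in the sources used here, so reads of that overlap could be assigned to either gene. Gm26902 had 17, 42 and 8 counts in KO and 21, 20 and 30 in WT libraries.

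Soat1 (ENSMUSG00000026600.12, chromosome 1 from 156424525 to 156474331, minus strand) encodes the enzyme that turns free cholesterol into the esters stored in foam cells. It had 393, 377 and 383 CPM in KO and 429, 420 and 409 CPM in WT libraries. All 3 KO values lay below all 3 WT values, and both groups were tight, with means of 384 ± 8.29 and 419 ± 10.1 CPM (SD, n = 3). The difference was small, -0.13 on the log2 scale or 0.916-fold (95% interval of the log2 value -0.26 to 0.011), with an unadjusted p of 0.066 and an adjusted p of 0.31 by edgeR's quasi-likelihood test. Scaling by library size alone gave -0.16 with an unadjusted p of 0.029 in the same edgeR test. Abca1 exceeded Soat1 per kb of exon by 3.09 ± 0.237 times in KO and by 2.98 ± 0.278 times in WT libraries.

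Across the set, WT replicate 1 was the lowest library for 6 of the 10 genes (Abcg1, Apoe, Apoc1, Nr1h2, Nr1h3 and Abcg3) and the highest for Soat1. KO replicate 3 was the highest for 4 genes (Apoe, Nr1h3, Mylip and Abcg3), and KO replicate 2 was the lowest for 3 genes (Abca1, Mylip and Soat1). For the 8 genes other than Ch25h and Soat1, the ranges of the genotypes overlapped. The genes whose log2 CPM followed Abca1 most closely over the 6 libraries were Gm17484, Rmdn2 and Nars2 (Pearson's r of 0.998, 0.987 and 0.986). These are the highest of 13611 genes over only 6 libraries, 3 of each genotype, so they serve as a description only. How high such values reach by selection alone was not tested.

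**Figure D3:**
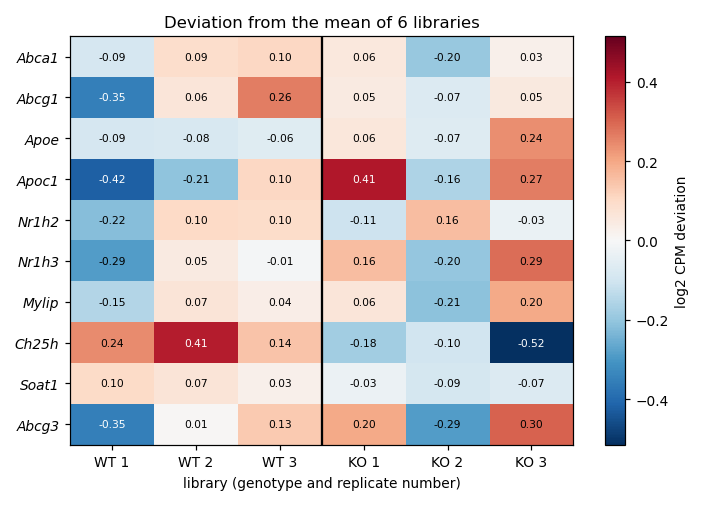
Deviation of log2 CPM from the mean of the 6 libraries (colour and printed value) for each of the 10 genes (rows) in each library (columns; black line between genotypes). WT replicate 1 is at -0.35 for Abcg1 and Abcg3 and KO replicate 3 at 0.24 for Apoe, and a colour that divides at the black line in all 6 columns is seen for Ch25h and Soat1.

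Compared per kb of exon, transcript levels of the set spanned from Apoe at 6622 ± 624 CPM per kb to Apoc1 at 1.05 ± 0.24 CPM per kb (SD over the 6 libraries, n = 6). Abca1 followed Apoe at 124 ± 9.79, then Soat1 at 41.1 ± 2.12, Mylip at 31.9 ± 3.33 and Nr1h2 at 20.9 ± 2.07 CPM per kb. Lower levels were those of Abcg1 at 16.2 ± 2.19, Nr1h3 at 8.90 ± 1.33, Abcg3 at 5.14 ± 0.915 and Ch25h at 1.35 ± 0.307 CPM per kb. Neighbours in this order did not overlap between libraries, apart from Nr1h2 and Abcg1, whose ranges met although Nr1h2 was higher in 6 of 6 libraries, and Ch25h and Apoc1, where Ch25h was higher in 4 of 6. Lengths are those of all annotated exons of a gene merged, so genes with long rarely used exons read too low.

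**Figure D4:**
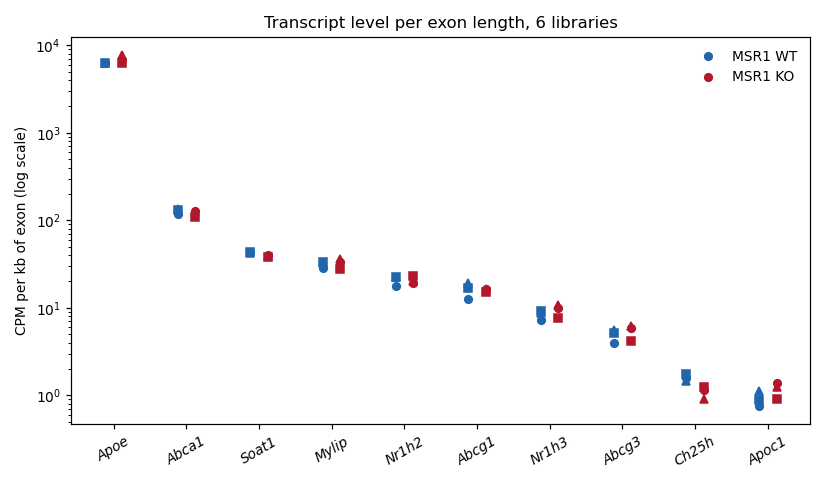
Level of the 10 genes in CPM per kb of merged exon (y axis, log scale), ordered by their mean, in 3 MSR1 WT (blue) and 3 MSR1 KO (red) libraries. Apoe lies 53.3-fold above Abca1, and the last 2 genes, Ch25h and Apoc1, overlap at about 1 CPM per kb.

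Of 24 other genes known as LXR targets, 19 were tested, of which 2 rose and 1 fell at an adjusted p under 0.05 by edgeR's quasi-likelihood test, with a median log2 fold change of -0.089. Scd1, the desaturase that makes monounsaturated fatty acids, fell from 7.71, 6.43 and 8.06 CPM in WT to 3.54, 4.19 and 3.23 CPM in KO libraries (log2 fold change -1.02, 95% interval -1.43 to -0.61, adjusted p = 0.024). Tgm2, a transglutaminase, rose from 195, 244 and 214 CPM in WT to 317, 421 and 306 CPM in KO libraries (log2 fold change 0.68, adjusted p = 0.033, edgeR). Npc2, which moves cholesterol out of lysosomes, rose by 0.34 on the log2 scale (adjusted p = 0.034, edgeR). The sides did not overlap for any of these, but the calls were not stable to the number of libraries. Those of Tgm2 and Npc2 were lost whichever library was left out (adjusted p up to 0.13 and 0.12), and that of Scd1 without KO replicate 1, KO replicate 3 or WT replicate 1 (up to 0.1). Fasn, the fatty acid synthase, had 41.7, 48.5 and 45.9 CPM in KO and 54.8, 59.3 and 62.4 CPM in WT libraries, with no overlap and a log2 fold change of -0.37 that missed the threshold (adjusted p = 0.055, edgeR). The abundant targets Lpl, Pltp and Smpdl3a had log2 fold changes of -0.19, -0.19 and 0.084. Vegfa had one of 0.37 (adjusted p = 0.063, edgeR), and none of these passed the test. The groups overlapped for Lpl and Smpdl3a but not for Pltp (lower in KO) and Vegfa (higher in KO). Over the 19 tested targets, every KO library lay above every WT library for 3 and below for 6.

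The enzymes of oxysterol and late sterol synthesis and breakdown were listed with the oxysterol receptor Gpr183 as 10 genes, of which 9 were tested. At an adjusted p under 0.05 in edgeR, 0 rose and 0 fell, with a median log2 fold change of -0.01. DESeq2's Wald test called 1 gene of this list higher at the same threshold. Cyp27a1, which makes 27-hydroxycholesterol, had 137, 130 and 128 CPM in KO and 94.2, 111 and 116 CPM in WT libraries. All 3 KO libraries lay above the WT libraries, opposite in sign to Ch25h, but the log2 fold change of 0.30 (95% interval 0.093 to 0.51) had an adjusted p of 0.11 by edgeR's quasi-likelihood test. Gpr183 itself, which binds a dihydroxycholesterol, was at -0.24 on that scale (adjusted p = 0.4, same test).

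Genes of cholesteryl ester turnover and sterol transport numbered 17, all tested, with a median log2 fold change of -0.00047. At an adjusted p under 0.05 in edgeR, 3 rose and 0 fell. Every KO library lay above every WT library for 4 of the 17 genes and below for 3, among them Lipa and Npc1. Lipe, a lipase that also splits cholesteryl esters, rose from 33.3, 31.3 and 33 CPM in WT to 51.0, 51.7 and 39.9 CPM in KO libraries (log2 fold change 0.55, adjusted p = 0.033, edgeR). Stard3, a late endosomal sterol carrier, rose by 0.43 on the log2 scale (adjusted p = 0.048, edgeR), and the third was Npc2. Each of the calls on Lipe and Stard3 held in 1 of 6 fits with a library left out (adjusted p up to 0.12 and 0.18). Soat2, the relative of Soat1 found mainly in liver and intestine, had 3.01, 4.4 and 2.86 CPM in KO against 0.606, 0.801 and 2.28 CPM in WT libraries. These values did not overlap, and the difference of 1.48 on the log2 scale (95% interval 0.38 to 2.58) had an adjusted p of 0.13 by edgeR's quasi-likelihood test. Lipa, the lysosomal acid lipase, was at -0.14, Npc1 at -0.19 and the lipid droplet gene Plin2 at -0.00047 on the log2 scale, with adjusted p-values of 0.24, 0.16 and 1 in edgeR.

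For HDL components and apolipoproteins other than Apoe and Apoc1, 8 of 12 genes were tested, and 0 rose and 0 fell at an adjusted p under 0.05 in edgeR (median log2 fold change -0.21). Scarb1, the HDL receptor, was at -0.23 and Clu at -0.51 on the log2 scale (adjusted p = 0.33 and 0.51). Apoa1 and Apoc3 were listed at 0 counts in all 6 libraries.

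Among the targets of SREBP2, the factor that raises cholesterol synthesis and uptake when sterol is short, 23 of 24 genes were tested. At an adjusted p under 0.05 in edgeR, 0 rose and 1 fell. The median log2 fold change was -0.092, against -0.0023 over all tested genes, and 17 of 23 values were below 0. Whether these signs differ from those of all tested genes was not tested. Fdft1, the squalene synthase, fell from 110, 114 and 82.2 CPM in WT to 66.1, 65.3 and 73.0 CPM in KO libraries (log2 fold change -0.58, adjusted p = 0.04, edgeR), a call that held in 1 of 6 fits with a library left out (up to 0.15 without WT replicate 1). Sqle, the next enzyme, had 7.35, 6.81 and 7.85 CPM in KO and 12.4, 9.99 and 9.90 CPM in WT libraries (log2 fold change -0.55, adjusted p = 0.074, edgeR). Hmgcs1, an early enzyme of the pathway, was at -0.12 (95% interval -0.33 to 0.10) and Srebf2 itself at 0.019 on the log2 scale.

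Of 11 lipoprotein and scavenger receptors, all tested, 1 rose and 3 fell, Msr1 being among the latter. The median log2 fold change was -0.23, with 10 of 11 values below 0. Stab1, a scavenger receptor of macrophages and sinusoidal cells, fell from 2335, 2539 and 2002 CPM in WT to 1683, 1448 and 1541 CPM in KO libraries (log2 fold change -0.56, adjusted p = 0.025, edgeR). Cd36, which takes up oxidized LDL, fell from 2107, 2415 and 2216 to 1819, 1704 and 1879 CPM (log2 fold change -0.32, adjusted p = 0.048, edgeR), and Cxcl16, which also binds oxidized lipoprotein, rose by 0.32 on the log2 scale at an adjusted p just under 0.05. The calls on Cd36 and Cxcl16 were lost whichever library was left out (adjusted p up to 0.16 and 0.18), and that on Stab1 in 5 of 6 such fits (up to 0.1). Lrp1 was at -0.23 (adjusted p = 0.27, same test).

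In the ABCA and ABCG families, to which Abca1, Abcg1 and Abcg3 belong, 13 of 21 genes were tested, of which 0 rose and 1 fell. Abca9, a transporter that is regulated by cholesterol in human macrophages, fell from 267, 227 and 255 CPM in WT to 166, 164 and 156 CPM in KO libraries (log2 fold change -0.62, standard error 0.079, adjusted p = 0.01, edgeR). This call held in 5 of 6 fits with a library left out and had an adjusted p of 0.054 without WT replicate 1. Its neighbour in the family Abca6 was at -0.56 with no overlap between the groups (adjusted p = 0.18, same test), Abca2 at -0.19 and Abca3 at -0.068.

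**Figure D5:**
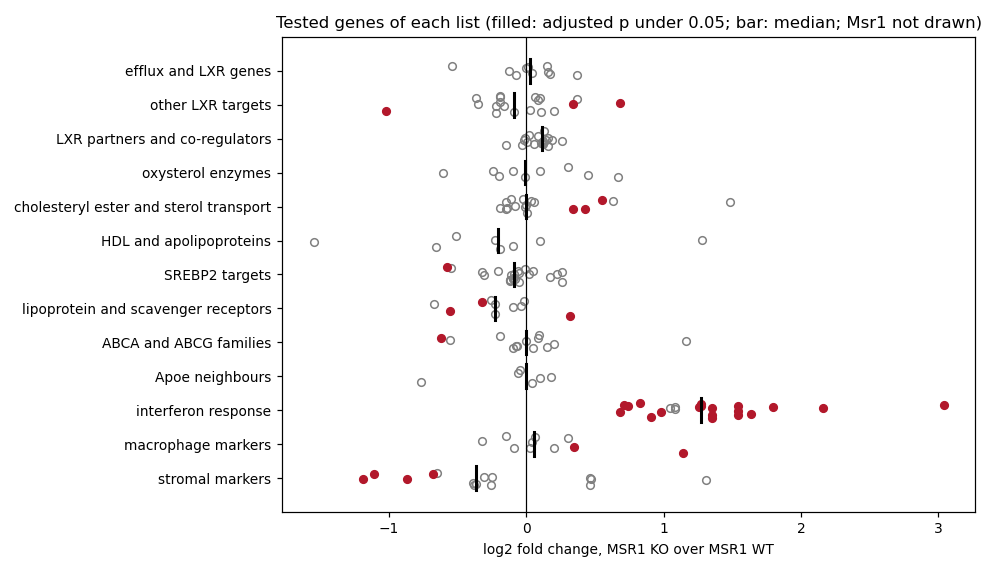
Log2 fold change of MSR1 KO over MSR1 WT macrophages (x axis) for the tested genes of each list (y axis), with genes past an adjusted p of 0.05 in edgeR filled in red and the median of the list as a black bar (Msr1 lies off the left side and is not drawn). The 10 efflux and LXR genes hold no red point, the other sterol lists hold between 0 and 3, and the interferon list holds 19 red points to the right of 0.

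Transcripts of the interferon list were higher in KO than in WT libraries, but the list was chosen with earlier results of these data known. Of 22 interferon-induced genes, all tested, 19 rose and 0 fell at an adjusted p under 0.05 by edgeR's quasi-likelihood test. Over all tested genes 2.25% rose. In all 22 every KO library lay above every WT library (median log2 fold change 1.27), against 12.1% of all tested genes. Ifit2 had 448, 454 and 320 CPM in KO and 120, 93.9 and 206 CPM in WT libraries. The number that rose was 1 of 22 without KO replicate 1 and 1 of 22 without WT replicate 1. It was 7 without KO replicate 2, 9 without KO replicate 3, 5 without WT replicate 2, 21 without WT replicate 3 and 3 with the replicate block. With 1 library left out, the call on Ifit2 held in 2 of 6 fits, with an adjusted p of up to 0.11 without WT replicate 1 in edgeR.

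Macrophage markers were abundant in every library. All 10 were tested, Csf1r had 4333 to 4565 CPM, and the summed level of the list ran from 23815 to 24863 CPM in KO and from 23792 to 26372 CPM in WT libraries, with 2 of 10 rising (Fcgr1 and Ptprc, log2 fold change 1.14 and 0.35) and 0 falling at an adjusted p under 0.05 in edgeR. The calls held in 4 and 1 of 6 fits with a library left out. Markers of stromal cells, the cell type of the other transwell chamber, were present as well. Their summed level over 15 genes was 2046 to 2692 CPM in KO and 2788 to 3528 CPM in WT libraries, 4 of 15 fell (Pdgfra, Pdgfrb, Acta2 and Cxcl12, by -1.19, -0.87, -0.68 and -1.11 on the log2 scale) and 0 rose in edgeR, and none was at 0. These calls held in 4, 3, 2 and 1 of 6 fits with a library left out, and all were lost without WT replicate 1. Of the 15 stromal markers, 11 had a negative and 4 a positive log2 fold change, with a median of -0.37. The abundant Col1a1, Col1a2 and Sparc were at -0.26, -0.39 and -0.38 (adjusted p = 0.37, 0.11 and 0.14, edgeR). Among the 4 positive markers were Thy1, Eng and Nt5e. Thy1 had 6.24, 6.00 and 7.06 CPM in KO and 2.04, 1.45 and 4.33 CPM in WT libraries, with no overlap, a log2 fold change of 1.31 (95% interval 0.46 to 2.15) and an adjusted p of 0.091 in edgeR, and it met the study's definition of a changed gene. Eng, also without overlap, was at 0.47 and Nt5e, with overlap, at 0.46 on the log2 scale (adjusted p = 0.12 and 0.46, edgeR). Neutrophil markers, 8 tested with 0 rising and 0 falling, summed to 636 to 1039 CPM in KO and 419 to 799 CPM in WT libraries. All 8 had a positive log2 fold change, with a median of 0.38. Summed markers were at most 22.9 CPM for B cells, 14.7 CPM for T and NK cells, 3.77 CPM for dendritic cells and 0.412 CPM for erythroid cells, with 0 calls among those tested, and Hbb-bs and Hbb-bt were at 0 counts in all 6 libraries. The part of stromal RNA in the values of Apoe, Abca1 and the other genes of the set, some of which stromal cells also express, was not tested. In bulk libraries fewer cells of a type and less RNA per cell cannot be told apart.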

How the data were processed

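RNA of macrophages kept with BMSCs was sequenced after an mRNA library preparation. The deposited table holds raw counts per gene, and beside it, as signal, the same counts after division by a size factor of the authors. It also holds the authors' own fold changes and p-values, which were not used. The submitters' processing notes name fastp 0.17.1, HISAT2 2.1.0, R 3.4.3 and DESeq2 1.18.1, whereas the paper's methods name TopHat and FPKM values. The counting program, strand setting and genome build are not given in the sources used here. Of the table's 52550 gene identifiers, 52403 were found in GENCODE M21 and 49909 had the same coordinates on GRCm38.

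Total counts ranged from 36143518 to 47417448 per library, and replicates differed by more than sampling noise. Counts were filtered with filterByExpr, scaled by TMM and compared between genotypes in edgeR 4.0.16 (glmQLFit, then glmQLFTest; R 4.3.3), and p-values were adjusted by Benjamini-Hochberg for the 16402 genes tested. The method was tested on simulated data. CPM per kb used the merged exons of GENCODE M21. Alternatives replaced the tool (DESeq2 1.42.0), the scaling (size factors of DESeq2, or library size alone) or the filter (none, or a minimum of 10 counts per library), added a replicate block, or left out 1 library.

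The 10 genes and all lists (other LXR targets, LXR partners, oxysterol enzymes, sterol transport, HDL, SREBP2 targets, receptors, ABC families, Apoe neighbours, interferon response and cell type markers) were chosen with earlier results of these data known. Named from each list were up to 4 genes of at least 1 CPM with the largest change and up to 4 of the most abundant, and for Abca1 the 3 genes with the highest correlation. Gm26902, Rxra, Eng, Nt5e and the genes at 0 counts lie outside that rule and were chosen after their values were seen. Some genes that this rule names are not reported here.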

Additional observations from a re-analysis of the deposited data

How the results depend on the processing

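In the main test and in all alternatives, 0 of the 10 efflux and LXR genes passed an adjusted p of 0.05 or the study's definition, and their adjusted p-values ran from 0.14 to 1. At an unadjusted p under 0.05, Ch25h and Soat1 passed with library size alone and Apoe without MSR1 KO replicate 2. The signs of Apoe, Apoc1, Nr1h3, Ch25h, Soat1 and Abcg3 were kept in all 12 alternatives. The log2 fold change of Abcg1 turned to 0.0018 with DESeq2 and with its size factors, and that of Nr1h2 turned to -0.022 with library size alone. With a library left out, values lay from -0.16 to 0.14 for Abcg1, from -0.088 to 0.073 for Nr1h2, from -0.13 to 0.0019 for Abca1 and from -0.052 to 0.14 for Mylip. The causes were not tested.

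Genes called over all pathway lists numbered 30, of which 19 were in the interferon list and another was Msr1 itself. With a library left out, which fits fewer samples, the number lay between 2 (without MSR1 WT replicate 1) and 29. Over all genes, DESeq2 called 716 higher and 847 lower, against 369 and 436 in edgeR, and no filter gave 237 and 288. Same-numbered libraries did not deviate together (correlations of -0.026, 0.019 and -0.005), so the numbers were not read as pairs. With the replicate block, 6 list genes and, over all genes, 59 higher and 78 lower were called, 0 of the 10 genes passed, and Abcg1 was at 0.017. Apoc1 and Ch25h were counted at most 43 and 116 times in a library, and whether depth set the width of their intervals was not tested.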
